A study of Mus musculus with 5 samples.

Results

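The genes described here are 9 enzymes and carriers of protein digestion on the brush border, the microvillus surface of the absorptive enterocyte. They are the peptidase genes Anpep, Enpep, Dpp4, Mep1a, Mep1b and Ace and the transporter genes Slc15a1, Slc6a19 and Slc7a9, taken by symbol from the deposited gene table. All 9 were among its 19198 genes, and all 9 passed the filter on low counts that left 14352 genes for testing. RNA came from the small intestine of 5 mice, 1 library per mouse. Of these, 2 were Cre-positive (Math1Cre*PR and mAChR4fl/fl) and 3 were Cre-negative mAChR4fl/fl mice that lacked the transgene. The floxed alleles are of Chrm4, the M4 muscarinic acetylcholine receptor gene. All 5 mice carried the floxed alleles and were gavaged with RU486 at 10 mg/kg daily for 4 days. Math1 drives the secretory lineage of the intestinal epithelium, whereas the genes described here belong mainly to absorptive enterocytes. Cre*PR is a Cre recombinase that RU486 activates. There was no Cre-positive mouse with unfloxed Chrm4, so effects of the active Cre and of the loss of Chrm4 cannot be told apart. The labels give no age, sex or strain. The design text speaks of the whole small intestine, and no label says which stretch each library came from.

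Dietary protein reaches the brush border as short peptides. Membrane peptidases trim these to amino acids and to very short peptides, which carriers in the same membrane take into the enterocyte. Many of these proteins are known to be spread unevenly along the length of the small intestine and from crypt to villus tip.

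Library totals ran from 4681113 to 6618213 rounded counts. Chrm4, the targeted gene, had 13 and 5 counts in Cre-positive mice 1 and 2, against 4, 20 and 4 in Cre-negative mice 1, 2 and 3, too few to check the genotype labels. Of all genes tested, 0 (0%) passed edgeR's quasi-likelihood test at an adjusted p of 0.05 in either direction. At an unadjusted p under 0.05 there were 485 genes (3.38%), and DESeq2 called 19 (0.132%). Marker genes of position stood far apart between the libraries within each group. A region score, the mean log2 CPM (counts scaled to library size with TMM factors) of 6 distal markers minus that of 7 proximal markers, was 4.66 and 0.57 in Cre-positive mice 1 and 2. It was 1.75, 2.74 and -1.55 in Cre-negative mice 1, 2 and 3 (exact permutation test, two-sided p = 0.6, where 0.1 is the smallest p that 2 against 3 can give). Cre-positive 1 thus had the most distal score and Cre-negative 3 the most proximal one. In whole tissue, fewer cells of a type and less RNA per cell cannot be told apart.

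The stretches of DNA just upstream of 4 members are printed first, because these members turned out to vary least (Enpep), most (Ace), in the same libraries as Ace (Slc15a1) or in the opposite one (Mep1a). The sequences run 5′ to 3′ on the gene's own strand and are from RefSeq on GRCm38.p6. They end before the annotated start of transcription: Enpep is chr3:129332750-129332999 (minus strand), Ace is chr11:105967698-105967944 (plus strand), Slc15a1 is chr14:121505255-121505504 (minus strand) and Mep1a is chr17:43502813-43503023 (minus strand). Capitals mark a match to the TATA box letters TATAAA on either strand.
Enpep: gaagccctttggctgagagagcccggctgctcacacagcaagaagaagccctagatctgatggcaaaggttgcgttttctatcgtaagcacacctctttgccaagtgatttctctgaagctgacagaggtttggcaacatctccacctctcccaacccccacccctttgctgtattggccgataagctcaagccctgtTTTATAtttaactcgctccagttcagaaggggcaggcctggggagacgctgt
Ace: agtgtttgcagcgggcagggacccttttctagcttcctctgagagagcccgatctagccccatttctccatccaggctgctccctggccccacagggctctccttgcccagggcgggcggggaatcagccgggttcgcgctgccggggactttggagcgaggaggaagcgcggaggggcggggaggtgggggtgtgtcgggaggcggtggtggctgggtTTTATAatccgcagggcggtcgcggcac
Slc15a1: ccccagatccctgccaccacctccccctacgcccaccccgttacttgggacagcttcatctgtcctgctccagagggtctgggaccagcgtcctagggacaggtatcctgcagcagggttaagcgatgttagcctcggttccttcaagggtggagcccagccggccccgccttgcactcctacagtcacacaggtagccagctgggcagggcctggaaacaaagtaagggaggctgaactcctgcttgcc
Mep1a: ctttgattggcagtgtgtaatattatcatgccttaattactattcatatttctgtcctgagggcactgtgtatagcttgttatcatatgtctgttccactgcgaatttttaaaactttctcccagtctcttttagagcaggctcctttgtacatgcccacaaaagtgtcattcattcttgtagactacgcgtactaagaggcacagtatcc
In the 250 bases before the RefSeq start, the letters TATAAA were found for 3 of the 8 members with a window (Ace, Dpp4 and Enpep). The share over all 32851 windows was 12.4%. For Anpep, Slc6a19 and Slc7a9 the whole window lies inside the gene as annotated in GENCODE M21. The GATA motif AGATAA was found for Dpp4 and Slc7a9, 2 of 8, and in 9.99% of all windows. The letters of the HNF1 half-site GTTAAT (6.43% of windows), the HNF4 motif CAAAGTCCA (0.384%) and the CDX motif TTTATG (10.8%) were found for 0 of 8 members. Both strands were searched. A match is only a run of letters, and its absence says nothing of the factor. The 2 TATA-type matches printed overlap none of the other motifs searched. Ace and Slc7a9 have 2 windows each, of which only the first was counted. Their second windows held none of the motifs searched. Mep1b had no window.

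None of the 9 genes differed by genotype past the threshold, and the 95% interval of every log2 fold change spanned 0. Of 9 members, 0 were called higher and 0 lower (edgeR quasi-likelihood test, Benjamini-Hochberg adjusted p from 0.977 to 0.993), beside 0% of all genes tested. The log2 fold change, Cre-positive mice over Cre-negative mice, was positive for 7 members and negative for 2 (5 and 4 when libraries were scaled to epithelial markers). Its median was 0.29, beside -0.04 over all genes tested. It ran from -0.18 for Slc15a1 to 0.53 for Mep1b. The CPM values of the groups did not overlap for 3 members (Anpep, Enpep and Mep1b), all higher in Cre-positive mice, while 18.0% of all genes tested did not overlap, 7.89% higher and 10.2% lower in Cre-positive mice. The 9 genes together took 0.869% and 1.08% of the counts in Cre-positive mice 1 and 2, against 0.707%, 0.840% and 0.919% in Cre-negative mice 1, 2 and 3.

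**Figure D1:**
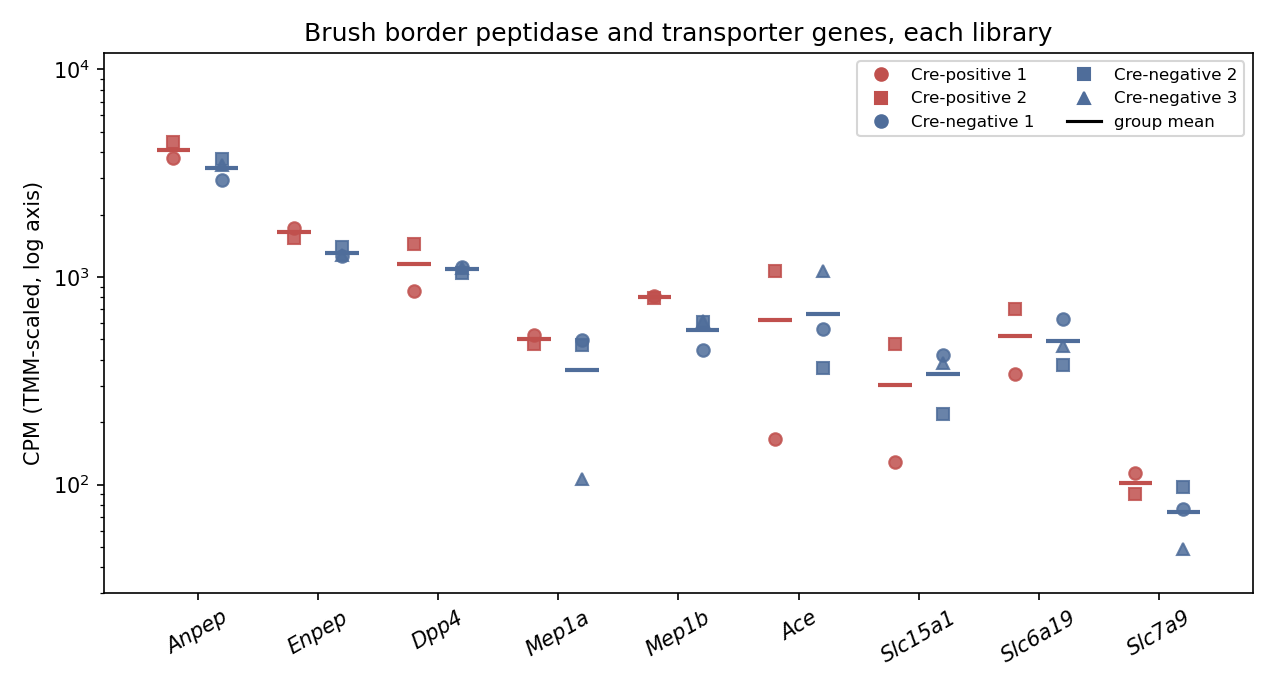
CPM of the 9 members in each library on a log axis, with Cre-positive mice in red left of Cre-negative mice in blue and a bar at each group's mean. Anpep, Enpep and Mep1b lie close together within groups, whereas Ace spans 166 to 1074 CPM within the Cre-positive group and Mep1a 107 to 496 CPM within the Cre-negative group.

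Per kilobase of exon, the order of the members was led by the aminopeptidases and ended with the carriers of amino acids and peptides. Mean levels in Cre-positive and Cre-negative mice were 993 and 814 CPM per kb for Anpep, 348 and 279 for Enpep, and 305 and 212 for Mep1b. Dpp4 followed at 182 and 172 CPM per kb. Mep1a (145 and 104 CPM per kb) and Ace (117 and 126 CPM per kb) came next and changed places between the groups. Their ranges over libraries overlapped, and their order differed by library. Mep1a was above Ace in Cre-positive 1 (152 against 31.4) and in Cre-negative mice 1 and 2. It was below Ace in Cre-positive 2 and in Cre-negative 3 (30.9 against 202). Slc6a19 had 104 and 97.9 CPM per kb, Slc15a1 61.9 and 70.1, and Slc7a9 38.1 and 27.7. Anpep stood clear of the rest in every library. Enpep was above Mep1b in each library, although their ranges over libraries overlapped. Ace spanned 31.4 to 203 CPM per kb, a range that overlapped those of all members from Mep1b down to Slc7a9.

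The aminopeptidases were the steadiest members. Anpep (chromosome 7, 79821803 to 79861059, minus strand, GRCm38) encodes aminopeptidase N, which removes neutral residues from the amino end of peptides. It had 3735 and 4478 CPM in Cre-positive mice 1 and 2, against 2927, 3694 and 3473 CPM in Cre-negative mice 1, 2 and 3. Both Cre-positive mice stood above every Cre-negative mouse, by a small margin for Cre-positive 1, and the log2 fold change was 0.29 ± 0.28 (SE; 95% interval -0.36 to 0.94; edgeR adjusted p = 0.977). Leaving out Cre-positive 2 gave 0.19 and leaving out Cre-positive 1 gave 0.44. Enpep (chromosome 3, 129269175 to 129332720, minus strand) encodes aminopeptidase A, which removes acidic residues. It had 1731 and 1546 CPM in Cre-positive mice, against 1259, 1400 and 1274 CPM in Cre-negative mice. The groups did not overlap, and the log2 fold change was 0.32 ± 0.24 (95% interval -0.25 to 0.89; edgeR adjusted p = 0.977). Enpep also had the smallest spread of the 9, with a highest library 1.38 times its lowest. Over the 1783 genes with a mean CPM at least that of Slc7a9, the median of this ratio was 1.60.

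Mep1b lies on chromosome 18, 21061923 to 21100199 (plus strand). The meprins, zinc metalloproteases of the astacin family, are encoded by Mep1a (the alpha subunit) and Mep1b (the beta subunit), and the pair differed from each other in these libraries. Mep1b had 809 and 792 CPM in Cre-positive mice 1 and 2, against 447, 606 and 613 CPM in Cre-negative mice 1, 2 and 3. All Cre-positive values lay above all Cre-negative values, and the log2 fold change was 0.53 ± 0.25 (95% interval -0.05 to 1.11). Its unadjusted p of 0.0692 was the lowest of the members (edgeR adjusted p = 0.977). Mep1a (chromosome 17, 43474324 to 43502812, minus strand) had 525 and 477 CPM in Cre-positive mice, against 496, 470 and 107 CPM in Cre-negative mice 1, 2 and 3. Cre-negative 3 stood alone at the low end, and the other 4 libraries lay between 470 and 525 CPM. The log2 fold change of Mep1a was 0.49 ± 0.58 (edgeR adjusted p = 0.977), with 0.10 on leaving out Cre-negative 3, 0.83 on leaving out Cre-negative 1 and 0.73 on leaving out Cre-negative 2. Within a library, the ratio of Mep1a to Mep1b counts was 0.648 and 0.603 in Cre-positive mice, against 1.11, 0.776 and 0.174 in Cre-negative mice 1, 2 and 3. Both Cre-positive ratios lay inside the Cre-negative range.

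Among the dipeptide-releasing enzymes, Ace varied most of all members. Ace (chromosome 11, 105967945 to 105989964, plus strand) encodes angiotensin-converting enzyme, which removes dipeptides from the carboxyl end of peptides and is also made by endothelium. It had 166 and 1074 CPM in Cre-positive mice 1 and 2, against 559, 364 and 1068 CPM in Cre-negative mice 1, 2 and 3. Cre-positive mice held both the lowest and the highest value, 6.48 times apart, and of the 1783 genes of at least Slc7a9's level 3.03% had a larger span over the 5 libraries. The log2 fold change was -0.10 ± 0.79 (95% interval -1.99 to 1.79; edgeR adjusted p = 0.993). Leaving out Cre-positive 1 gave 0.73, leaving out Cre-positive 2 gave -1.96 and leaving out Cre-negative 3 gave 0.46. The endothelial markers Pecam1, Cdh5, Kdr, Emcn, Tie1 and Vwf summed to 17.6 and 4.20 CPM in Cre-positive mice 1 and 2, against 9.82, 10.0 and 4.56 CPM in Cre-negative mice 1, 2 and 3. All 6 were in the table, 3 passed the filter and 0 were called, and Cdh5 was at 0 counts in Cre-negative 3. That sum was thus highest in the library where Ace was lowest, and its part in the Ace level was not tested. Ace overlaps Gm11651 and Dpp4 overlaps Gm13561 on the other strand.

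Dpp4 (chromosome 2, 62330073 to 62412231, minus strand) encodes dipeptidyl peptidase 4, which cuts behind proline or alanine and also inactivates incretin hormones. It had 856 and 1447 CPM in Cre-positive mice, against 1116, 1042 and 1107 CPM in Cre-negative mice. The Cre-negative mice were close together and the Cre-positive mice lay on either side of them. The log2 fold change was 0.08 ± 0.29 (95% interval -0.61 to 0.77; edgeR adjusted p = 0.982). Leaving out Cre-positive 2 gave -0.31, leaving out Cre-positive 1 gave 0.45, and scaling to epithelial markers gave -0.13. T cells also make this protein. Of 6 T cell markers, 5 were in the table and 1 (Cd8a) passed the filter, and those 5 summed to 34.6 and 4.97 CPM in Cre-positive mice 1 and 2, against 3.59, 2.22 and 3.75 CPM in Cre-negative mice. Cd4 was at 0 counts in Cre-negative 1. Dpp4 was thus lowest in the library with the most T cell marker counts, and the part of T cells in its level was not tested.

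The carriers of peptides and of neutral amino acids were low in Cre-positive 1 and high in Cre-positive 2. Slc15a1 (chromosome 14, 121459621 to 121505252, minus strand) encodes PepT1, the proton-coupled carrier of very short peptides. It had 128 and 477 CPM in Cre-positive mice 1 and 2, against 423, 218 and 386 CPM in Cre-negative mice 1, 2 and 3. As for Ace, the Cre-positive mice enclosed the Cre-negative range, and the log2 fold change was -0.18 ± 0.55 (95% interval -1.49 to 1.13; edgeR adjusted p = 0.981). Leaving out Cre-positive 1 gave 0.52, leaving out Cre-negative 1 gave 0.03 and leaving out Cre-positive 2 gave -1.38. Slc6a19 (chromosome 13, 73679745 to 73704865, minus strand) encodes the sodium-dependent carrier of neutral amino acids. It had 341 and 698 CPM in Cre-positive mice, against 630, 376 and 464 CPM in Cre-negative mice. The Cre-positive mice again lay on either side of all Cre-negative mice, with a log2 fold change of 0.08 ± 0.37 (95% interval -0.79 to 0.96; edgeR adjusted p = 0.985). Leaving out Cre-positive 2 gave -0.48, leaving out Cre-negative 2 gave -0.08, leaving out Cre-positive 1 gave 0.55 and scaling to epithelial markers gave -0.15. Slc9a3, the sodium and proton exchanger that sustains the proton gradient for peptide uptake, had 82.2 and 416 CPM in Cre-positive mice, against 182, 474 and 423 CPM in Cre-negative mice. Its log2 fold change was -0.53 ± 0.71 (edgeR adjusted p = 0.977), and without Cre-positive 1 it was 0.23.

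Slc7a9 and Slc3a1, the light and heavy chains of the carrier of cystine and dibasic amino acids, each had their highest level in Cre-positive 1 and their lowest in Cre-negative 3. Slc7a9 (chromosome 7, 35448796 to 35466036, plus strand) had 113 and 90.5 CPM in Cre-positive mice, against 76.7, 97.1 and 48.7 CPM in Cre-negative mice 1, 2 and 3. Cre-positive 2 lay below Cre-negative 2, so the groups overlapped, and the log2 fold change was 0.46 ± 0.31 (95% interval -0.27 to 1.18; edgeR adjusted p = 0.977). Leaving out Cre-negative 3, the lowest library, gave 0.27, leaving out Cre-negative 2 gave 0.70, and leaving out both Cre-positive 1 and Cre-negative 3 gave 0.070. Slc3a1 had 193 and 170 CPM in Cre-positive mice, against 133, 139 and 127 CPM in Cre-negative mice, with no overlap and a log2 fold change of 0.45 ± 0.20 (unadjusted p = 0.0545; edgeR adjusted p = 0.977). The ratio of Slc7a9 to Slc3a1 counts was 0.586 and 0.533 in Cre-positive mice, against 0.575, 0.699 and 0.385 in Cre-negative mice. Slc3a1 overlaps Prepl on the other strand, with the use of strand in counting not given in the sources used here.

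**Figure D2:**
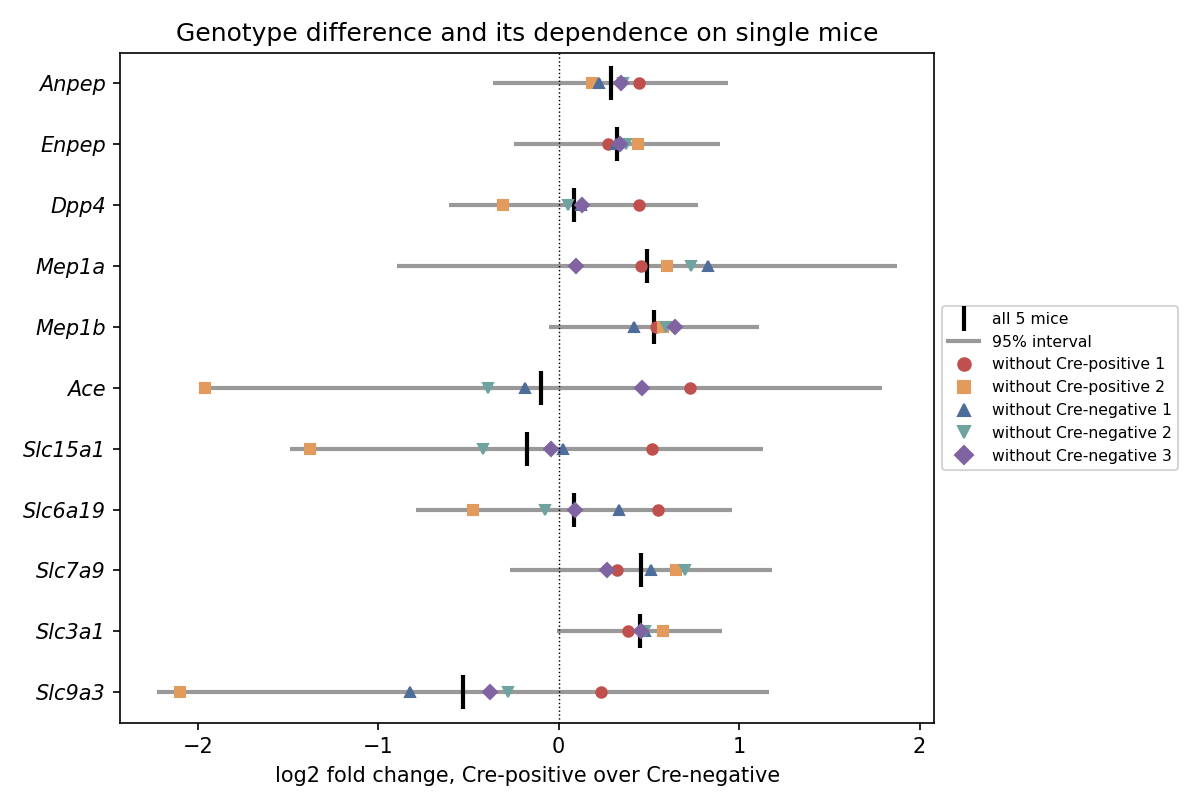
Log2 fold change, Cre-positive mice over Cre-negative mice, for the 9 members and for Slc3a1 and Slc9a3, with all 5 mice (black tick, grey 95% interval) and with each mouse left out (coloured symbols). Every interval spans 0, and for Ace the value lies between -1.96 and 0.73 depending on the mouse left out.

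Set side by side across libraries, the members formed no single pattern. After each gene's log2 CPM was centred on its mean over the 5 libraries, the closest pairs were Anpep and Enpep (root-mean-square distance 0.16 log2 units), Anpep and Mep1b (0.17) and Enpep and Mep1b (0.18). The farthest pair was Ace and Mep1a (1.67). Relative to its mean over libraries, Ace stood at -1.65 log2 units in Cre-positive 1 and 1.03 in Cre-negative 3, while Mep1a stood at 0.54 in Cre-positive 1 and -1.76 in Cre-negative 3. The ratio of Ace to Mep1a counts was 0.316 and 2.25 in Cre-positive mice 1 and 2, against 1.13, 0.775 and 10.0 in Cre-negative mice 1, 2 and 3. These distances describe 5 libraries, in which every gene shares its library's depth and tissue makeup, and carry no test.

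The same libraries stood apart in region markers. Gata4, a transcription factor of the proximal intestine, had 0.387 and 39.9 CPM in Cre-positive mice 1 and 2, against 24.7, 19.8 and 47.4 CPM in Cre-negative mice 1, 2 and 3. Its low library and its 2 high libraries were those of Ace. Lct, the lactase gene, had 3.48 and 632 CPM in Cre-positive mice, against 259, 15.8 and 881 CPM in Cre-negative mice. Onecut2, a duodenal transcription factor, had 69.4 CPM in Cre-negative 3 and 1.48 to 3.89 CPM in the other 4 libraries, and Cre-negative 3 was the library in which Mep1a was low. Slc10a2, the ileal bile acid carrier, had 810 and 45.9 CPM in Cre-positive mice, against 218, 376 and 6.52 CPM in Cre-negative mice. All 7 proximal markers were in the table, and they summed to 690 and 2066 CPM in Cre-positive mice 1 and 2, against 1356, 788 and 2199 CPM in Cre-negative mice 1, 2 and 3. Fabp1 was at 0 counts in Cre-positive 1. Slc40a1 ran the other way from most of the list, at 234 and 25.2 CPM in Cre-positive mice, against 19.4, 96.7 and 8.63 CPM in Cre-negative mice, and Cybrd1 was highest in Cre-negative 1. All 6 distal markers were in the table and summed to 2215 and 1905 CPM in Cre-positive mice, against 2543, 1330 and 815 CPM in Cre-negative mice, of which Cubn made up much and did not follow Slc10a2. With the region score as a covariate, the log2 fold change was 0.31 ± 0.32 (SE) for Ace and 0.037 ± 0.39 for Slc15a1. All 9 members were positive, with a median of 0.27 beside -0.04 over all genes tested. Of the members, 0 were called (edgeR, lowest adjusted p = 0.982). Leaving out both Cre-positive 1 and Cre-negative 3, a choice made after seeing the data, left 1 Cre-positive mouse. The members' median in that fit was 0.45, beside -0.035 over all genes tested. How much of each member's spread came from position was not tested. These fits cannot apportion it, since the score came from the same 5 libraries and the last fit was chosen after seeing the data.

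**Figure D3:**
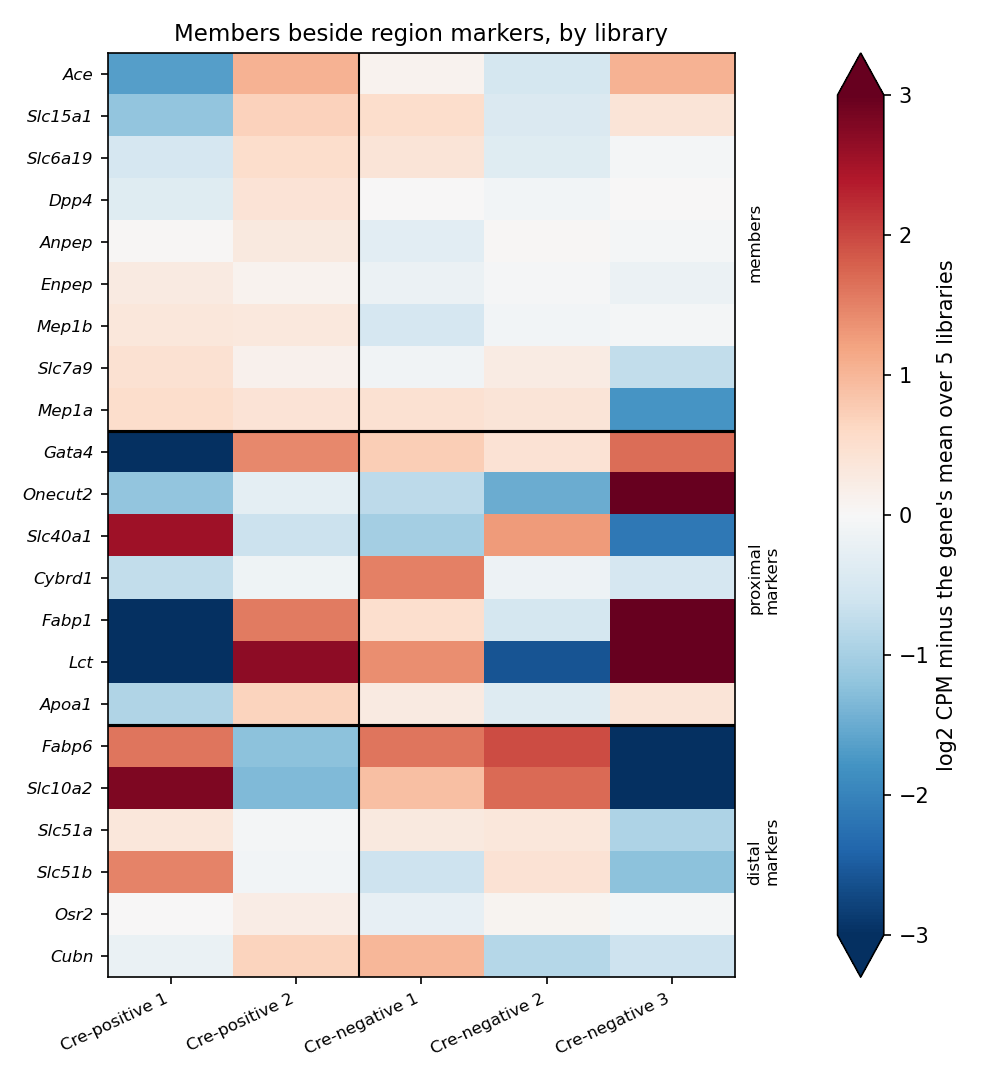
Log2 CPM of the 9 members (top), 7 proximal markers (middle) and 6 distal markers (bottom), each minus the gene's mean over the 5 libraries, with colours capped at 3 above and below. Ace and Slc15a1 are low in Cre-positive 1, where Gata4, Fabp1 and Lct are low but Slc40a1 is high (2.55). Mep1a is low in Cre-negative 3, where Slc10a2 and Fabp6 are low. Slc10a2 (-1.33) and Fabp6 (-1.23) are also low in Cre-positive 2, where Mep1a is not (0.40).

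The libraries also differed in the summed levels of epithelial and muscle markers. The 10 pan-epithelial markers, all in the table and 0 called, summed to 3187 and 4102 CPM in Cre-positive mice 1 and 2, against 3099, 3180 and 3349 CPM in Cre-negative mice 1, 2 and 3. The 6 smooth muscle markers summed to 569 and 610 CPM in Cre-positive mice, against 1822, 863 and 590 CPM in Cre-negative mice, with 0 called and all 6 log2 fold changes negative. Anpep, Enpep and Mep1b were each lowest in Cre-negative 1, the library with the largest muscle sum and the smallest epithelial sum. Mitochondrial genes took 17.8% and 18.8% of counts in Cre-positive mice 1 and 2, against 23.8%, 21.2% and 17.3% in Cre-negative mice 1, 2 and 3 (exact permutation test, two-sided p = 0.5). That share was thus also highest in Cre-negative 1, and its part in these levels was not tested. Pericyte markers, of cells that can also make Enpep and Anpep, summed to 222 and 228 CPM in Cre-positive mice, against 780, 423 and 274 CPM in Cre-negative mice. Fibroblast markers summed to 361 and 213 CPM in Cre-positive mice, against 654, 357 and 188 CPM in Cre-negative mice. All 6 markers of each of these 3 lists were in the table, 0 were called, and none of them was at 0 in any library. Both sums were highest in Cre-negative 1, where Anpep and Enpep were lowest, and their part in those levels was not tested. When libraries were scaled to the epithelial markers, the log2 fold change was 0.11 for Anpep, 0.17 for Enpep and 0.37 for Mep1b, and it was -0.13 for Dpp4 and -0.15 for Slc6a19. This scaling moved the median of all genes tested by -0.17, to -0.21, where the members' median was 0.11. Villus tip markers summed to 344 and 1381 CPM in Cre-positive mice 1 and 2, against 994, 492 and 1338 CPM in Cre-negative mice 1, 2 and 3, with all 6 in the table and 0 called. Crypt markers, of which Ascl2 was not in the table used, summed to 556 and 279 CPM in Cre-positive mice, against 130, 264 and 522 CPM in Cre-negative mice, with 5 of 6 tested and 0 called. Ace and Slc15a1 were low in the 2 libraries with the lowest villus tip sums, Cre-positive 1 and Cre-negative 2. Apoa4 weighed heavily in those sums, at 58.4 and 671 CPM in Cre-positive mice, against 385, 94.7 and 868 CPM in Cre-negative mice. Not all of the list followed it. Slc28a2 was lowest in Cre-negative 3 (61.4 CPM), and Klf4 was higher in Cre-negative 2 (196 CPM) than in Cre-negative 3 (151 CPM). The part of villus position in these levels was not tested.

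The other genes of protein digestion and amino acid transport likewise gave no call in either direction. Of 25 genes listed, 23 were in the table and tested, 12 had a positive and 11 a negative log2 fold change, and 0 were called higher and 0 lower. Their median was 0.11, against -0.04 over all genes tested, and for 2 of them (8.70%), Slc3a1 and Slc7a7, the groups did not overlap, both higher in Cre-positive mice, beside 18.0% of all genes tested (7.89% higher). Tmprss15 and Folh1 were not in the table used. At the low end, Slc7a8, the light chain of a basolateral carrier of neutral amino acids, had 8.90 and 104 CPM in Cre-positive mice 1 and 2, against 65.2, 35.6 and 148 CPM in Cre-negative mice 1, 2 and 3. Slc36a1, a proton-coupled carrier of small neutral amino acids, had 19.9 and 161 CPM in Cre-positive mice, against 70.4, 86.0 and 229 CPM in Cre-negative mice. Both were lowest in Cre-positive 1 and highest in Cre-negative 3. The log2 fold changes were -0.55 ± 1.03 for Slc7a8 and -0.50 ± 0.90 for Slc36a1 (edgeR adjusted p = 0.977 for each). Without Cre-positive 1 these were 0.36 for Slc7a8 and 0.35 for Slc36a1, and without Cre-negative 3 they were 0.21 for Slc7a8 and 0.23 for Slc36a1. Slc9a3, given above, was the third gene at that end.

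At the high end stood Slc6a14, a sodium- and chloride-dependent carrier of neutral and cationic amino acids, with 929 counts in a single library. It had 180 and 0.155 CPM in Cre-positive mice 1 and 2, against 2.16, 1.30 and 1.63 CPM in Cre-negative mice 1, 2 and 3. Cre-positive 1 was far above the other 4 libraries, and Cre-positive 2, with 1 count, was the lowest of the 5. The log2 fold change of 5.73 ± 1.90 did not pass (edgeR adjusted p = 0.977). By limma-voom it was 1.59 ± 3.19, and adding the region score as covariate gave 1.99 ± 2.11. Without Cre-positive 2 it was 6.77 and passed (edgeR adjusted p = 0.00207), and without Cre-positive 1 it was -3.23. Of the list, Slc3a1 and Slc7a7 were next. Slc7a7, the light chain of a basolateral carrier that exports cationic amino acids, had 84.4 and 88.1 CPM in Cre-positive mice, against 68.8, 72.5 and 71.0 CPM in Cre-negative mice. Its groups did not overlap, and the log2 fold change was 0.29 ± 0.19 (edgeR adjusted p = 0.977). Slc7a7 overlaps Oxa1l on the other strand.

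**Figure D4:**
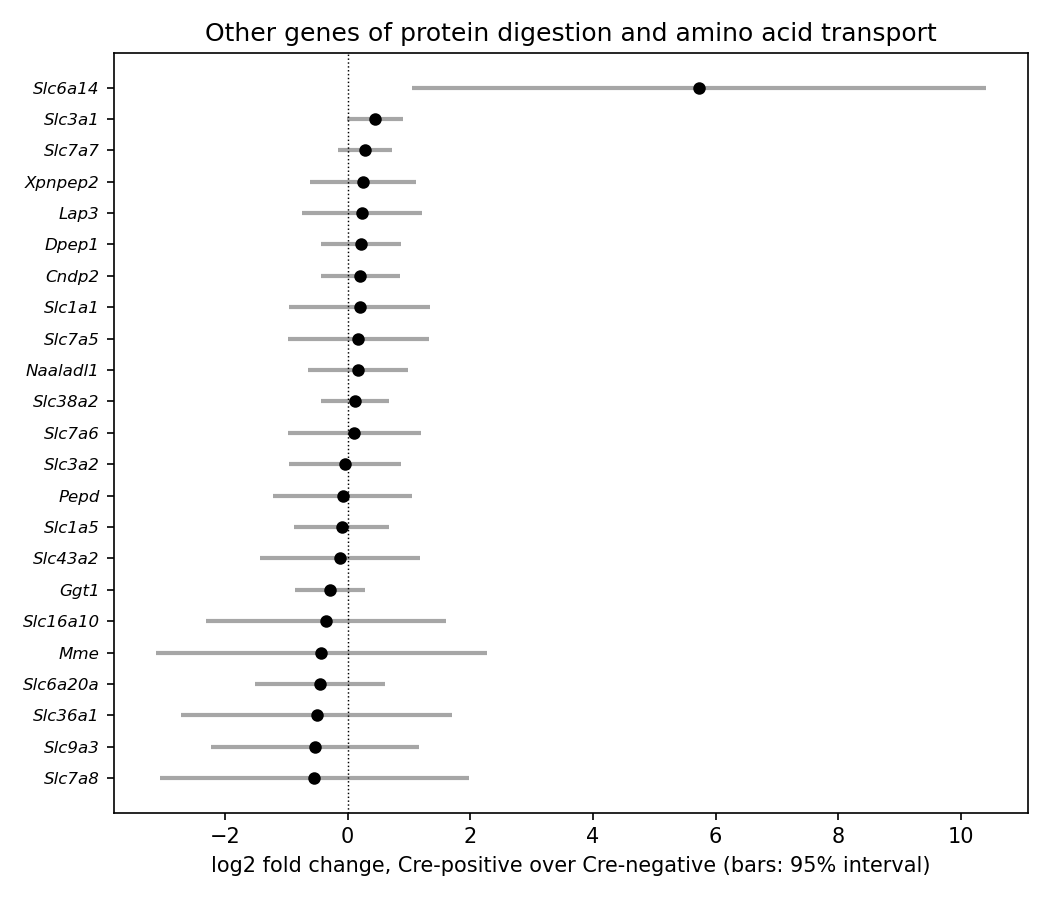
Log2 fold change, Cre-positive mice over Cre-negative mice (points), with its 95% interval (bars) for the 23 listed genes tested. Of these, 12 lie above 0 and 11 below, and the wide bar at the top is Slc6a14, whose counts came almost wholly from Cre-positive 1.

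Other genes whose log2 CPM averaged 3 or more numbered 8572. Of these, those closest to the members' mean pattern over the 5 libraries were Cd82, Cdhr2, Ipmk, Apol7a and Crip1. Their root-mean-square distances from it were 0.03 to 0.06 log2 units. The mean averages members that ran opposite ways, such as Ace and Mep1a, so closeness to it is not closeness to each member. Cd82, the nearest, had 44.9 and 73.7 CPM in Cre-positive mice 1 and 2, against 55.6, 51.3 and 50.5 CPM in Cre-negative mice 1, 2 and 3. Cdhr2, a protocadherin of the links between microvilli, had 589 and 844 CPM in Cre-positive mice 1 and 2, against 668, 599 and 598 CPM in Cre-negative mice 1, 2 and 3. Since Ace and Mep1a departed most from that mean, the genes nearest to each were also listed, a step chosen after their values were seen. Nearest to Ace were Guca2b (distance 0.11), Slc16a10 (0.15) and Sgpl1 (0.18). Guca2b, which encodes uroguanylin, had 108 and 681 CPM in Cre-positive mice, against 442, 246 and 713 CPM in Cre-negative mice. Slc16a10, a carrier of aromatic amino acids, had 42.8 and 282 CPM in Cre-positive mice, against 193, 106 and 322 CPM in Cre-negative mice. Nearest to Mep1a were Tmem173 (0.27) and Muc3 (0.30). Tmem173 had 14.7 and 8.86 CPM in Cre-positive mice, against 9.35, 8.52 and 2.61 CPM in Cre-negative mice 1, 2 and 3. Muc3, a transmembrane mucin, had 651 and 706 CPM in Cre-positive mice, against 666, 819 and 237 CPM in Cre-negative mice 1, 2 and 3. Like Mep1a, Tmem173 and Muc3 had their lowest values in Cre-negative 3.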

How the data were processed

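Total RNA of small intestine was depleted of ribosomal RNA and sequenced, per the labels' protocols. The authors deposited 1 table of estimated counts per gene symbol, with a column for each mouse. Partek and mm10 are named in the submitters' processing notes. Aligner, annotation, strand use and the way reads were counted were not given in the sources used here. Columns left unused numbered 0. The estimated counts were rounded. For 8 of the 9 members at least 1 library held a value farther than 0.005 from a whole number. How such values arose was not tested. Mice were grouped by the genotype label, and mouse numbers pair no animals.

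The test was edgeR 4.0.16 under R 4.3.3, with TMM factors, filterByExpr at a minimum count of 10 and robust quasi-likelihood fitting on genotype alone. Benjamini-Hochberg adjustment ran over 14352 genes, with a threshold of 0.05. With 3 residual degrees of freedom, the common biological coefficient of variation came to 33.1%. Standard errors are the size of the fold change over the square root of F, and 95% intervals use the moderated degrees of freedom. CPM are counts scaled by TMM, and log2 CPM used a prior count of 2. CPM per kb divides by the union of exons in GENCODE M21 (GRCm38, also called mm10). Genes were named by rule: all members, their partners, the 3 listed genes with the highest and the 3 with the lowest fold change, and the 5 genes nearest in pattern. The members and lists were chosen with earlier results of these data known, and 1 gene of the list of partners and pathway genes is not reported here. On simulated data of 13880 genes, 4 of 100 genes changed 2-fold were called and 60 of 100 changed 4-fold, with 9 unchanged genes also called. Alternatives were RLE, upper-quartile, total-count and epithelial-marker scaling, DESeq2 1.42.0, limma-voom (limma 3.58.1), no robust estimation, no filter, a filter of 5 CPM in 2 libraries, a threshold of 0.1, the region score as a covariate, and leaving out each mouse.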

Additional observations from a re-analysis of the deposited data

How the results depend on the processing

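No member was called under any of 17 alternatives, and the lowest adjusted p of a member was 0.335, without Cre-positive 2. Anpep, Enpep, Mep1b and Slc7a9 kept a positive log2 fold change in each alternative that refits it (the threshold of 0.1 does not), and the other 5 members turned sign in at least 1. With epithelial-marker scaling, the members' median was 0.11, Dpp4 had -0.13 and Slc6a19 -0.15. With the region score as a covariate, Ace had 0.31 and Slc15a1 0.037. Another fit left out Cre-positive 1 and Cre-negative 3 together, chosen after seeing the data, and kept 1 Cre-positive mouse. In it, the members' median was 0.45, Mep1a had -0.0035, Ace 1.23, Slc15a1 0.59, Slc9a3 0.36, Slc7a8 1.07, Slc36a1 1.05 and Slc6a14 -3.26. DESeq2 called 19 genes over all, 12 higher and 7 lower.

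Leaving out each mouse in turn gave 0 to 58 genes called over all, the 58 without Cre-positive 2 and all higher. In those fits the members' median ranged from 0.19 to 0.46, and the listed genes' median from -0.26 to 0.36, with 0 to 1 of them called (Slc6a14). Ranges were 0.19 to 0.44 for Anpep, 0.097 to 0.83 for Mep1a, 0.27 to 0.70 for Slc7a9, -1.96 to 0.73 for Ace, -1.38 to 0.52 for Slc15a1, -0.48 to 0.55 for Slc6a19, -0.31 to 0.45 for Dpp4, -2.10 to 0.23 for Slc9a3, -3.18 to 0.36 for Slc7a8, -2.66 to 0.35 for Slc36a1 and -3.23 to 6.77 for Slc6a14. A fit without a Cre-positive mouse leaves 1 in that group, which is assumed to vary like the others. Slc6a14 did not pass the filter in the fits without Cre-negative 1 or 3 or under the stricter filter. The cause of these differences was not tested. No paired analysis was possible because the mouse numbers in the labels are not shared between the groups.

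Members had 299 to 28808 counts per library, and the comparison rests on 5 mice. The intervals leave room for a change of Ace by -1.99 to 1.79 on the log2 scale.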
